A study of Mus musculus with 12 samples.

Results

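Ionotropic and metabotropic glutamate receptors, their auxiliary subunits and the postsynaptic scaffold proteins of the Dlg family were followed across the cell classes of the mouse motor cortex. The members were chosen by gene symbol: 4 AMPA receptor subunits (Gria1 to Gria4), 7 NMDA receptor subunits, 5 kainate receptor subunits, 2 delta receptor subunits and 8 metabotropic receptors. With them came 12 genes grouped as AMPA receptor auxiliary subunits (7 of the Cacng family, Cnih2, Cnih3, Shisa6, Shisa7 and Shisa9). Cacng6 was placed in that group by family name alone. The rest were 2 kainate receptor auxiliary subunits (Neto1 and Neto2) and 4 membrane-associated guanylate kinases (Dlg1 to Dlg4). All 44 were found among the 31053 genes of the matrix. The rule names symbols and uses no measured value, but it was set with earlier results of these data known.

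The data were RNA counts from single nuclei of the caudal forelimb area, the part of the primary motor cortex that drives the forelimb, in the right hemisphere of 6 mice aged 13 weeks. Their strain and genotype were not stated. All mice had their water limited to 1 mL per day for the first 10 days. On days 11 to 13 the 3 control mice (mice 1, 3 and 5) kept receiving it in the home cage, while the 3 trained mice (mice 2, 4 and 6) earned part of it by pressing a lever with the left paw under head fixation. Head fixation and reward therefore came with the training and cannot be told apart from it. Each mouse was sequenced in 2 runs that were joined, so the mouse was the replicate throughout.

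AMPA receptors carry fast excitatory transmission, and the Gria2 subunit makes the channel nearly impermeable to calcium after its transcript is edited. NMDA receptors need the obligatory Grin1 subunit, are blocked by magnesium at rest, and serve as detectors of coincident activity in synaptic plasticity. Kainate receptors modulate transmission on both sides of the synapse. Group I metabotropic receptors such as Grm5 couple to phospholipase C, whereas group II (Grm2 and Grm3) and group III (Grm4, Grm6, Grm7 and Grm8) lower cyclic AMP and often act presynaptically. Auxiliary subunits set the trafficking and gating of the receptors they bind.

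Promoter sequence is shown for 4 members with marked differences between classes: Grin2c (astrocytes), Grin2d (GABAergic neurons), Grik3 (deep-layer glutamatergic neurons) and Grm2 (layer 4/5 intratelencephalic neurons). RefSeq promoter entries (GRCm38.p6) were matched for 29 of the 44 members, and the 250 bases before the start given by each entry were searched. They are printed 5′ to 3′ on the strand of the gene. Capitals mark GGGCGG, the GC box, and TTCAGCACC and GGACAGC, pieces of the RE1 element bound by the repressor REST, each searched on both strands. The windows are chr11:115267244-115267493 (minus strand), chr7:45866682-45866931 (minus strand), chr4:125490446-125490695 (plus strand) and chr9:106656110-106656359 (minus strand).
Grin2c: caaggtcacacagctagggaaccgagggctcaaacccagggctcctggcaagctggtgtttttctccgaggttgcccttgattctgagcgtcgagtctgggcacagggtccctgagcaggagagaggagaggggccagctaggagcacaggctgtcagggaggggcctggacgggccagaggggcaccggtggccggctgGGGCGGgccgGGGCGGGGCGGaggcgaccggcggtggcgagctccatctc
Grin2d: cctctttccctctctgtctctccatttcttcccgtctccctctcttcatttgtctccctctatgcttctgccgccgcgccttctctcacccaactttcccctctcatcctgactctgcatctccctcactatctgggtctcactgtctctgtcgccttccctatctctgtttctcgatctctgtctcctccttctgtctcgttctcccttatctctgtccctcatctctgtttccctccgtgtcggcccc
Grik3: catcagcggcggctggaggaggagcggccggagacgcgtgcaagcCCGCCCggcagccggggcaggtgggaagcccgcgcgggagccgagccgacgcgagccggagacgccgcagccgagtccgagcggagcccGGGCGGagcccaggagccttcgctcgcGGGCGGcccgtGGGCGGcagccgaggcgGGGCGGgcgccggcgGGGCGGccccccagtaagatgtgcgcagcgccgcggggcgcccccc
Grm2: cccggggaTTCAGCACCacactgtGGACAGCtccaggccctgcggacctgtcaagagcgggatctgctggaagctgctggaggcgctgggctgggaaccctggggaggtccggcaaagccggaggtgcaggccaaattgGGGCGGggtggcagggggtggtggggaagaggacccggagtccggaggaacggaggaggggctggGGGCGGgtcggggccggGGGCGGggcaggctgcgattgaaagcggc
The GC box was found 3 times in the Grin2c window, 6 times in the Grik3 window, 3 times in the Grm2 window and 0 times in the Grin2d window. It was present in 32.7% of the 32851 promoter windows of the same length in the table. TTCAGCACC was present in 0.301% of all windows and, among the matched members, in that of Grm2 alone. GGACAGC (in 5.28% of all windows) was found in those of Grm2 and Gria2. The Grik3 window held 42 CpG dinucleotides and the Grin2d window 9, where the median of all windows was 6. In GENCODE M21 (GRCm38) Grin2d spans 45831883 to 45878378 on the minus strand. Its window therefore lies inside that span and not before the GENCODE start. These matches are letters in a window, and no binding was measured.

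In GENCODE M21 (GRCm38), Grin2c lies on chromosome 11 (115249169 to 115267243), Grin3a on chromosome 4 (49661611 to 49845744) and Cacng4 on chromosome 11 (107732357 to 107794557). The annotated spans of the members ran from 5.65 kb (Cnih2) to 1973 kb (Dlg2), with a median of 125 kb, against 17.4 kb for the coding genes of the matrix. Nuclear RNA is rich in unspliced transcripts, which can favour long genes, so levels were compared between classes within a gene and not between genes. An annotated gene on the opposite strand overlaps 25 members, Grin1 among them, and one on the same strand overlaps 20. Whether counting used strand is not stated, so the values of those members may include reads of the neighbour.

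After filtering, 49243 nuclei were kept, with 42302406 to 84127099 UMIs (unique transcript molecules) per mouse and a median of 5212 to 7205 UMIs per nucleus. Of the kept nuclei, 570 shared their barcode sequence with a nucleus of another mouse. Nuclei were clustered without the members and named from marker genes that included none of them. Even so, Grin3a was among the 10 leading genes of both Sst clusters and Cacng4 among those of the oligodendrocyte precursor cluster. Few listed markers were highest in their own class among the intratelencephalic neurons: 1 of 6 in layers 2/3 and 4/5, and 1 of 5 in layers 5 and 6. In layer 5 extratelencephalic neurons 2 of 8 were. In the other classes it was from 3 of 6 to all of them. The vesicular glutamate transporter Slc17a7 averaged 139.5 to 324 CPM (the UMIs of a gene scaled to a fixed total of UMIs in the class) in the 7 glutamatergic classes and 18.8 to 35.2 CPM in the 4 GABAergic classes. A cluster of 404 nuclei stayed unnamed, and 393 of them came from trained mouse 6. Transcripts of glutamatergic neurons were also counted in non-neuronal nuclei: the median of 5 glutamatergic markers (Slc17a7, Neurod2, Neurod6 and Tbr1 among them) stood at 7.33% (differentiating oligodendrocytes) to 44% (pericytes and smooth muscle) of its glutamatergic level there, depending on the class.

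**Figure D1:**
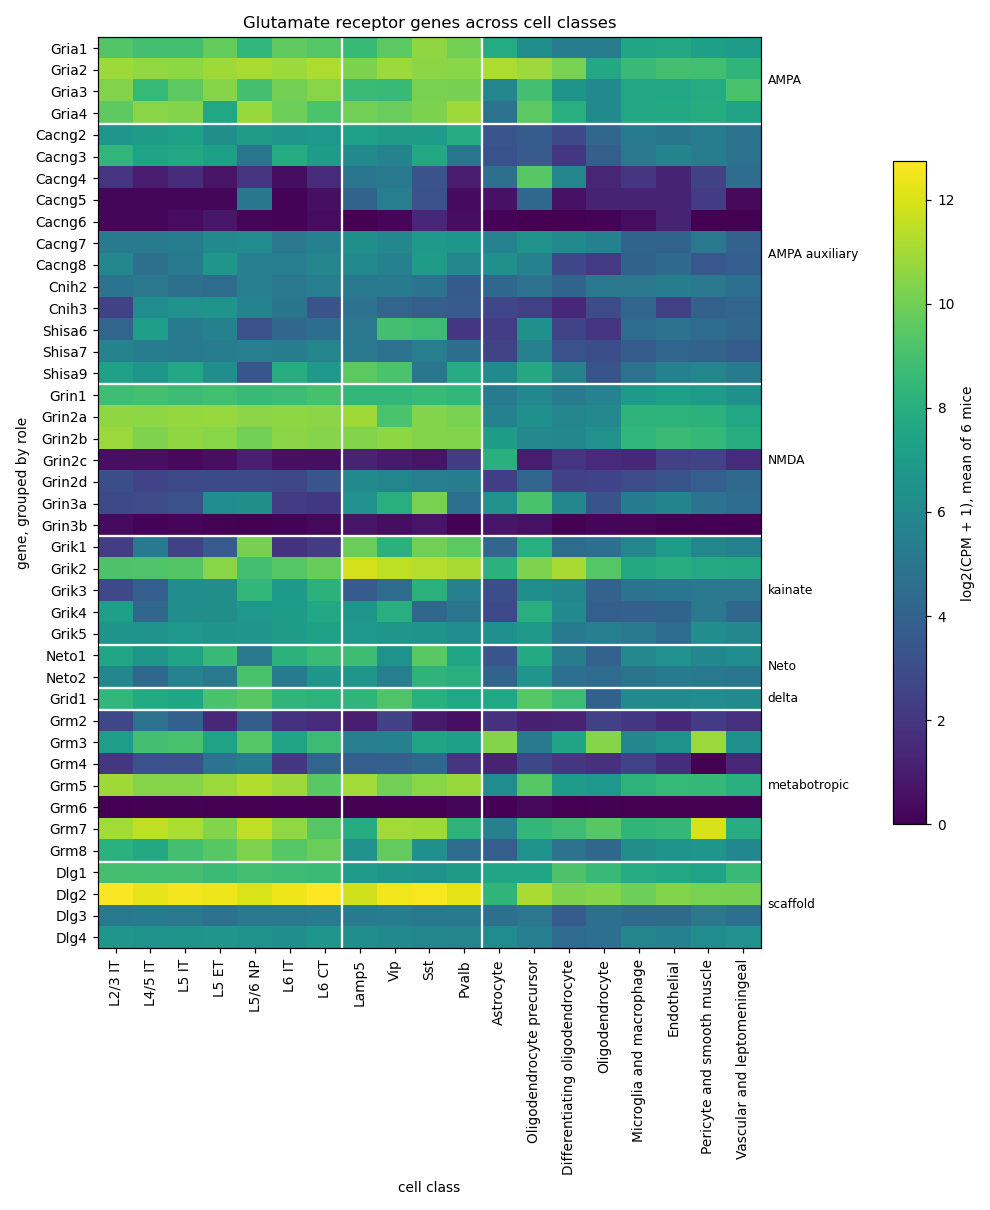
Mean level of 42 of the 44 genes (rows, grouped by role) in 19 cell classes (columns), as log2(CPM + 1) over 6 mice, where CPM are UMIs scaled to a fixed total per class. Bright fields in single classes, such as Grin2c in astrocytes and Cacng4 in oligodendrocyte precursors, stand beside rows that are bright in all neuronal classes, such as Dlg2.

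Of the 44 genes, 19 had their highest class mean in a glutamatergic class, 17 in a GABAergic class and 8 in a non-neuronal class. For 15 genes the mice of the highest class did not overlap those of the next class. For the others they did, so the highest class was not set apart from the next. Layer 5/6 near-projecting neurons (L5/6 NP) held the highest mean for 8 genes (Cnih2, Grid1, Neto2, Grik1, Grik3, Grm4, Grm5 and Grm8). Sst interneurons held 7 (Cacng6, Cacng7, Cacng8, Gria1, Grin3a and Neto1 among them) and layer 6 corticothalamic neurons (L6 CT) 6 (Shisa7, Gria2, Gria3, Grin1, Grik5 and Dlg2). All 6 genes of L6 CT overlapped the next class. Of those of L5/6 NP, Neto2, Grm5 and Grm8 did not and the rest did. The lowest mean was in astrocytes for 13 genes and in differentiating oligodendrocytes for 8. Among the neuronal classes it was in Pvalb interneurons for 10 genes and in L5/6 NP neurons for 7. Grm6, Grin3b and Cacng6 gave 10, 82 and 127 UMIs in all nuclei together. They are in these counts of highest and lowest classes but are not described further.

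Among the AMPA receptor subunits, Gria4 set the neuronal classes widely apart. In Pvalb interneurons, the fast-spiking cells, Gria4 was 2236, 1658 and 1783 CPM in control mice 1, 3 and 5 and 1889, 1695 and 1965 CPM in trained mice 2, 4 and 6. In layer 5 extratelencephalic neurons (L5 ET), which project to brainstem and spinal cord, it was 209.5, 191 and 204 CPM in control and 178, 183 and 179.7 CPM in trained mice. These were the highest and the lowest neuronal class for Gria4, and no mouse overlapped between them. Gria4 in L5/6 NP neurons (1758 ± 60.2 CPM, SD, n = 6 here and below) overlapped the Pvalb values. Gria1 was highest in Sst interneurons (1558 ± 159 CPM), where every mouse lay above the next class, Pvalb (1060.2 ± 149 CPM), and lowest among neurons in L5/6 NP (336 ± 76.5 CPM). Gria3 ranged among neurons from 1430.0 ± 143 CPM in L6 CT to 374 ± 86.9 CPM in layer 4/5 intratelencephalic neurons (L4/5 IT). Gria2 went from 2321 ± 134 CPM in L6 CT to 1211 ± 70.7 CPM in Lamp5 interneurons. Astrocytes, at 2276 ± 239 CPM of Gria2, overlapped L6 CT.

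The share of Gria2 among the UMIs of Gria1 to Gria4 was 87.9% ± 1.20 (SD, n = 6) in astrocytes and 59.3% ± 2.11 in oligodendrocyte precursors. Among the interneurons it ran from 48.1% ± 1.88 in Vip to 27.6% ± 1.35 in Sst and 26.4% ± 1.60 in Pvalb cells, and the Sst and Pvalb values overlapped. Vip mice, from 45.7% to 50.2%, all lay above the Sst mice, from 26.4% to 30.0%. Counts mix genes of different span, so the share compares classes and does not give the composition of a receptor.

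Several auxiliary subunits of AMPA receptors were concentrated in a few classes. Cacng4, a transmembrane AMPA receptor regulatory protein, was 669, 664 and 723 CPM in control mice 1, 3 and 5 and 733, 653 and 709 CPM in trained mice 2, 4 and 6 in oligodendrocyte precursors. The next class, differentiating oligodendrocytes, was at 54.1 ± 28.8 CPM. Shisa6, which slows AMPA receptor desensitisation, reached 479.9 ± 84.7 CPM in Vip and 422 ± 30.6 CPM in Sst interneurons, which overlapped, and 3.09 ± 2.35 CPM in Pvalb interneurons. Shisa9, a relative of Shisa6, had another order: 747 ± 28.4 CPM in Lamp5 and 560.4 ± 136 CPM in Vip, which overlapped, 228 ± 18.1 CPM in Pvalb and 30.8 ± 9.88 CPM in Sst interneurons. Cacng2 (stargazin) was highest in Pvalb interneurons (235 ± 18.3 CPM) and Cacng3 in layer 2/3 intratelencephalic neurons (L2/3 IT, 336 ± 17.1 CPM). In neither gene did the 6 mice overlap the next class. Cnih3, a cornichon protein that promotes AMPA receptor export, went from 95.8 ± 15.0 CPM in L5 ET to 4.80 ± 1.08 CPM in L2/3 IT. Its relative Cnih2 stayed between 11.2 and 45.0 CPM in the neuronal class means. Cacng7 and Cacng8 were highest in Sst interneurons, at 118 ± 16.4 CPM and 124 ± 14.2 CPM, both overlapping the next class.

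Among the NMDA receptor subunits, Grin2c was highest in astrocytes and measured 272, 261 and 248 CPM in control mice 1, 3 and 5 and 322, 275 and 246 CPM in trained mice 2, 4 and 6. Its highest neuronal class mean was 3.77 CPM, in Pvalb interneurons, so no neuronal class came near. Grin3a, a subunit that lowers calcium permeability and magnesium block, was 1095, 1029 and 1435 CPM in control and 1188, 1022 and 1219 CPM in trained mice in Sst interneurons. Oligodendrocyte precursors came next for Grin3a (546 ± 97.0 CPM), and L6 CT was lowest (3.17 ± 0.925 CPM). Grin1 was comparatively even, from 514 ± 16.2 CPM in L6 CT to 343 ± 24.9 CPM in Lamp5 among neurons. Grin2a, which becomes prominent as synapses mature, was 1926 ± 188 CPM in Lamp5 and 559 ± 117 CPM in Vip interneurons, its neuronal extremes. Grin2b, prominent early in development, was highest in L2/3 IT (1825 ± 124 CPM) and lowest among neurons in L5/6 NP (1049 ± 98.2 CPM). Grin2a made up 60.2% ± 1.63 of Grin2a plus Grin2b UMIs in Lamp5, 58.2% ± 1.47 in L5/6 NP, 46.4% ± 2.57 in L2/3 IT and 27.0% ± 4.37 in Vip.

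Kainate receptor subunits divided the neurons along other lines. Grik1 averaged 1123 ± 185 CPM in L5/6 NP and 1029.9 ± 138 CPM in Sst interneurons, which overlapped, against 2.71 ± 0.559 CPM in layer 6 intratelencephalic neurons (L6 IT). Grik2 was highest in Lamp5 interneurons (3916 ± 411 CPM), where every mouse lay above the next class, Vip (2885 ± 413 CPM). Grik3 was 406, 243 and 269 CPM in control and 334, 247 and 257 CPM in trained mice in L6 CT and 3.60, 7.82 and 6.92 CPM in control and 8.08, 5.73 and 3.87 CPM in trained mice in L2/3 IT. No mouse of L6 CT overlapped L2/3 IT for Grik3. Grik4 was nearly equal in Vip interneurons (260.2 ± 59.1 CPM) and oligodendrocyte precursors (253 ± 11.2 CPM). Grik5 spanned 153 ± 13.1 CPM (L6 CT) to 72.2 ± 6.03 CPM (Pvalb) among neurons. The Neto proteins, which modulate kainate receptor gating, differed in where they were highest. Neto1 was highest in Sst (714 ± 64.5 CPM) and lowest among neurons in L5/6 NP (33.5 ± 15.7 CPM), while Neto2 was highest in L5/6 NP (545 ± 45.6 CPM).

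Of the delta receptors, Grid1 was at 686 ± 57.2 CPM in L5/6 NP and 667 ± 53.7 CPM in oligodendrocyte precursors, which overlapped.

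Among the metabotropic receptors, Grm5 was highest in L5/6 NP (2498 ± 218 CPM) and lowest among neurons in L6 CT (701 ± 89.5 CPM). Of the group II receptors, Grm2 was sparse and highest in L4/5 IT, at 22.1, 34.1 and 32.4 CPM in control and 22.7, 30.2 and 21.3 CPM in trained mice. Grm3 was highest outside the neurons: 1809 ± 270.0 CPM in pericytes and smooth muscle cells, 1377 ± 172 CPM in oligodendrocytes and 1347 ± 254 CPM in astrocytes, against 657 ± 67.7 CPM in its highest neuronal class, L5/6 NP.

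Grm7, a presynaptic group III receptor, was also highest in pericytes and smooth muscle cells, at 4180.0, 4158 and 4070.2 CPM in control and 4262, 3411 and 4049.9 CPM in trained mice. These sums rested on 75 to 169 nuclei per mouse. Leaving out the nucleus with the most Grm7 UMIs in each mouse gave 3587 to 4187 CPM, so the level did not rest on single nuclei. It was 215% of the glutamatergic level, whereas the 5 glutamatergic markers stood at 20.9% to 55.1% of theirs in that class. Grm3 (509.8%), Grin2d (189.8%), Grin3a (180.2%), Grik1 (117%) and Cnih2 (109.7%) also exceeded their glutamatergic level there. The part of neuronal transcripts in these values was not tested. Among neurons Grm7 went from 2954 ± 245 CPM in L5/6 NP to 238 ± 32.5 CPM in Lamp5. Grm8, of the same group, was 1228 ± 94.0 CPM in L5/6 NP and 21.3 ± 4.28 CPM in Pvalb, and Grm4 was highest in L5/6 NP (41.9 ± 4.79 CPM).

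Of the scaffold proteins, Dlg2 (PSD-93) was 6830.3 ± 687 CPM in L6 CT and 3563 ± 125 CPM in Lamp5, its neuronal extremes. Dlg4 (PSD-95) stayed between 54.4 and 106 CPM in the neuronal class means, and Dlg3 (SAP102) between 27.3 and 39.6 CPM. Dlg1 (SAP97) was highest in differentiating oligodendrocytes (575 ± 99.2 CPM), overlapping L2/3 IT (513 ± 17.2 CPM), and lowest in Sst interneurons (90.8 ± 11.5 CPM).

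**Figure D2:**
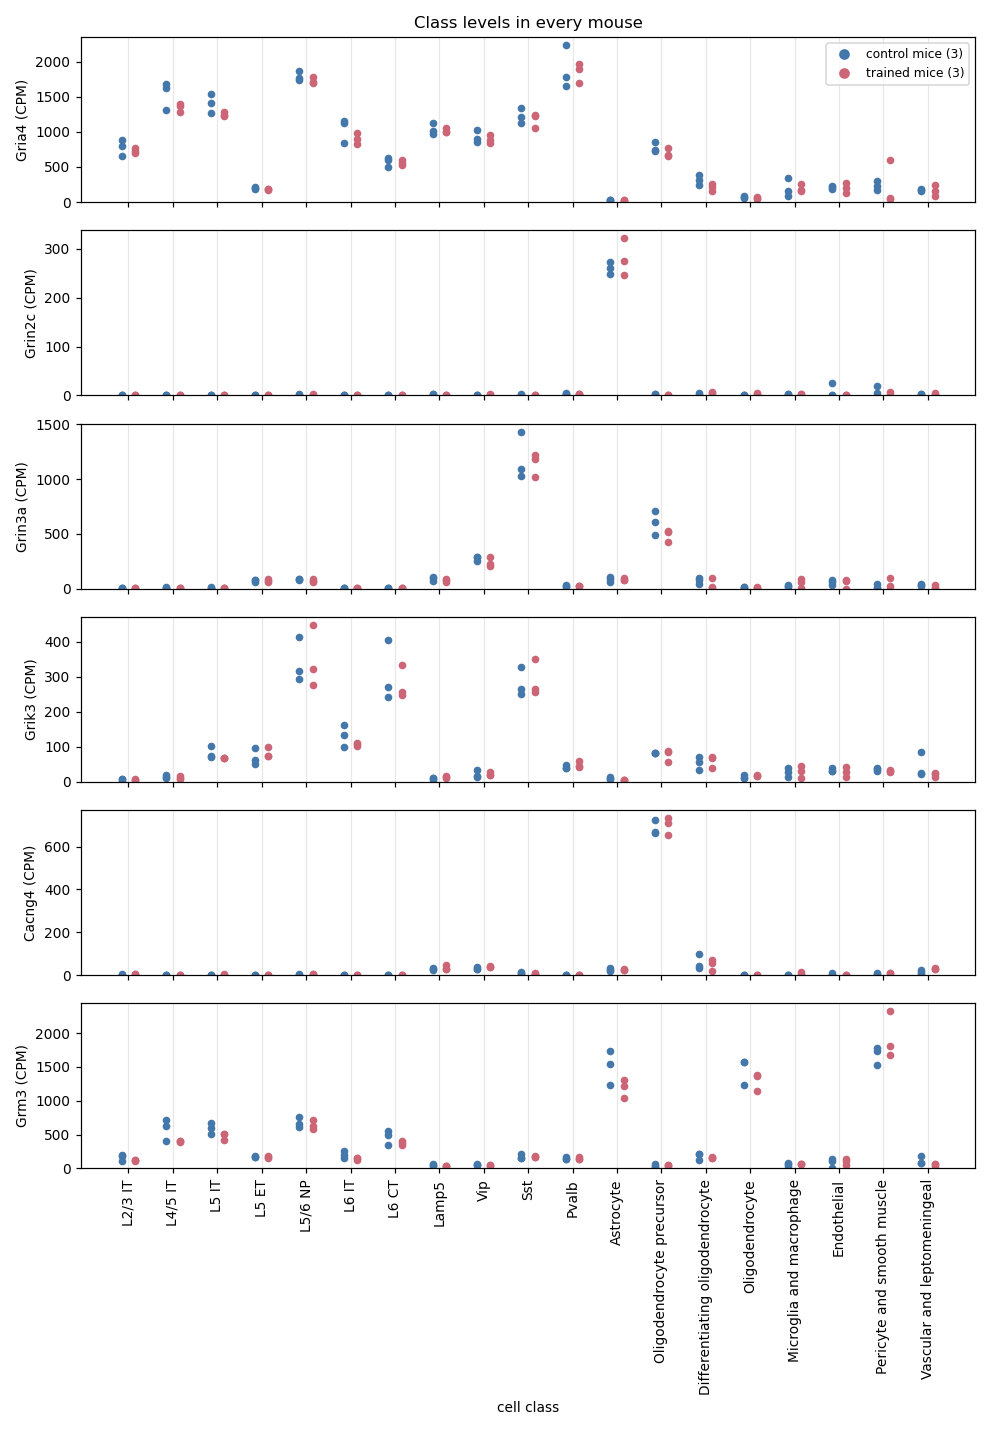
Level in CPM of 6 genes (panels, linear axes from 0) in each of 19 cell classes (horizontal axis); each point is 1 mouse, blue for the 3 control and red for the 3 trained mice. Grin2c stands out in astrocytes, Grin3a in Sst interneurons and oligodendrocyte precursors, and Cacng4 in oligodendrocyte precursors, in control and trained mice alike.

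Class contrasts were tested with edgeR's quasi-likelihood test on UMI sums per mouse, with the mouse as a block. A gene was called at a Benjamini-Hochberg adjusted p under 0.05 over all genes tested together with an absolute log2 fold change of at least 1. Cacng6, Grin3b and Grm6 fell below the count filter in every contrast. Since many genes differ between classes, the share of all tested genes that was called is given beside each count.

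Between GABAergic and glutamatergic neurons, 17 of the 41 members tested were called, 10 higher in GABAergic neurons (all genes 9.31%) and 7 lower (all genes 10.9%). Of all 16429 genes tested, 20.3% were called. The median log2 difference of the members was -0.16, against 0.04 over all genes. None of the AMPA pore subunits passed the size limit, with Gria1 at 0.60 ± 0.07 (SE) and Gria2 at -0.55 ± 0.04 log2 units. Grin3a was highest in its difference, from 15.3 ± 1.70 CPM in glutamatergic to 443 ± 50.3 CPM in GABAergic neurons (4.64 ± 0.06, adjusted p = 1.2e-18). Grik1 was 50.3, 41.4 and 56.4 CPM in control and 61.9, 41.5 and 40.5 CPM in trained mice in glutamatergic sums, and 904, 761 and 827 CPM in control and 911, 735 and 842 CPM in trained mice in GABAergic sums (3.91 ± 0.06). Cacng5 (2.77 ± 0.14), Cacng4 (2.70 ± 0.09) and Grin2d (2.65 ± 0.07) followed. Grin2d, an NMDA subunit that gives slow deactivation, was at 47.9 ± 3.79 CPM in GABAergic and 6.74 ± 0.689 CPM in glutamatergic neurons.

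On the lower side were metabotropic receptors, an auxiliary subunit and a scaffold. The log2 fold change was -3.20 ± 0.14 for Grm2, -2.27 ± 0.04 for Dlg1, -2.15 ± 0.07 for Grm8, -1.78 ± 0.08 for Cnih3 and -1.70 ± 0.07 for Grm3. Dlg1 was at 111 ± 8.17 CPM in GABAergic and 467 ± 18.8 CPM in glutamatergic neurons. By role, 4 of the 7 metabotropic receptors tested were called lower and 0 higher, 3 of 6 NMDA subunits were called higher and 0 lower, and 4 of 11 AMPA auxiliary subunits were called higher and 2 lower. All 17 called members differed in the stated direction in 6 of 6 mice.

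Within the GABAergic neurons, Sst interneurons, which target dendrites, were set against Pvalb interneurons. Here 15 of 39 members tested were called, where 11.1% of all 11879 genes were. Of these, 14 were higher in Sst (all genes 6.49%) and 1 lower (all genes 4.66%). Shisa6 was 443, 384 and 439 CPM in control and 447, 380.5 and 434 CPM in trained mice in Sst interneurons, and between 1.27 and 7.62 CPM in Pvalb interneurons (7.05 ± 0.12 log2 units, adjusted p = 1.7e-29 by edgeR). Grin3a was higher by 5.60 ± 0.09, Cacng5 by 4.77 ± 0.38 and Cacng4 by 3.25 ± 0.34. Shisa9 was the member called lower (-2.84 ± 0.08). Of the metabotropic receptors, Grm4 (2.74 ± 0.24), Grm7 (2.69 ± 0.05) and Grm8 (1.96 ± 0.09) were among those called higher, and of the 11 AMPA auxiliary subunits 6 were. The 4 AMPA pore subunits and the 4 Dlg scaffolds included no called gene.

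**Figure D3:**
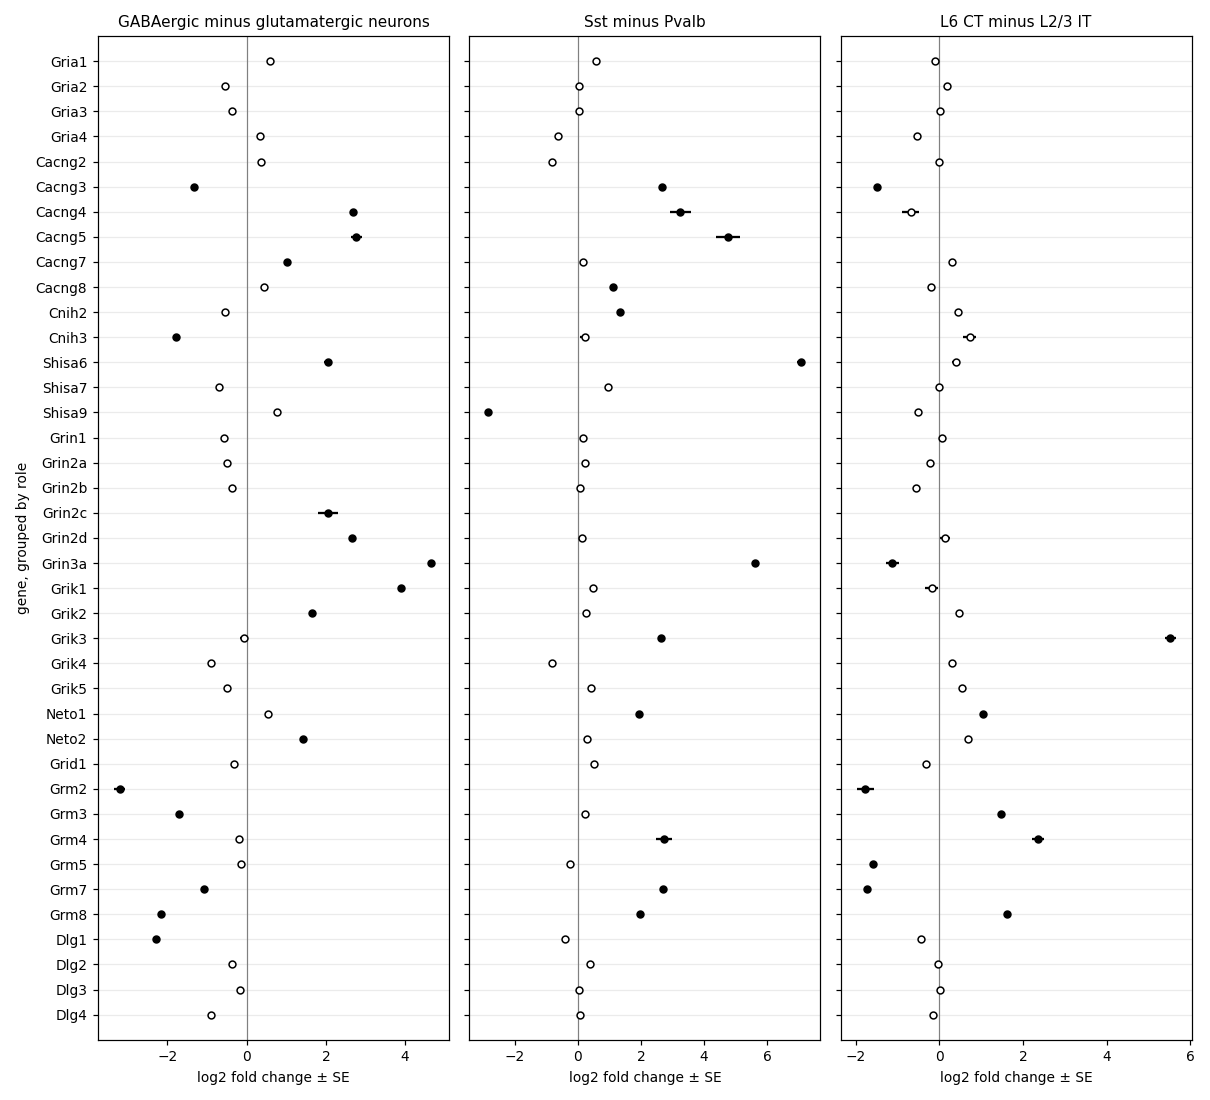
Log2 fold change ± SE of tested genes (rows, grouped by role) in 3 contrasts between neuronal classes, over 6 mice with the mouse as a block; filled points were called and open points were not. The Gria1 to Gria4 points lie within 1 log2 unit of 0 in all 3 panels, while Grin3a reaches 4.64 in the first, Shisa6 7.05 in the second and Grik3 5.51 in the third panel.

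Between glutamatergic classes, the deep L6 CT neurons were set against the superficial L2/3 IT neurons. Of 39 members tested, 11 were called, where 14.2% of all 13747 genes were. They were 5 higher (all genes 5.9%) and 6 lower (all genes 8.31%) in L6 CT. Grik3 was higher by 5.51 ± 0.13 log2 units (adjusted p = 8.1e-21 by edgeR), and Grm4 (2.35 ± 0.14), Grm8 (1.63 ± 0.07), Grm3 (1.48 ± 0.06) and Neto1 (1.03 ± 0.05) were also higher. Lower in L6 CT were Grm2 (-1.78 ± 0.20), Grm7 (-1.72 ± 0.05), Grm5 (-1.58 ± 0.05) and Cacng3 (-1.50 ± 0.05). Metabotropic receptors were thus called in both directions. Neto1 stood at the size limit and lost its call without control mouse 1 (0.998) or trained mouse 2 (0.9996).

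Astrocytes differed from glutamatergic neurons in 31 of 41 members, where 43.4% of all 16163 genes were called. Of these, 27 were lower (all genes 23.6%) and 4 higher (all genes 19.8%) in astrocytes. Higher were Grin2c (9.14 ± 0.14 log2 units, adjusted p = 1.3e-19 by edgeR), Cacng4 (3.71 ± 0.16), Grin3a (2.30 ± 0.10) and Grm3 (1.76 ± 0.09). Grin2c was at 0.413 ± 0.172 CPM in the glutamatergic sum. The largest differences in the other direction were those of Grm7 (-5.57 ± 0.15), Grm8 (-5.52 ± 0.13), Gria4 (-5.36 ± 0.13) and Grin2a (-5.23 ± 0.13). Gria2 was not called (0.12 ± 0.08, adjusted p = 0.179 by edgeR), and its CPM in astrocytes was 122% of that in glutamatergic neurons. The 5 glutamatergic markers stood at 4.12% to 33.7% of their glutamatergic level in astrocytes, and 21 of the 38 members compared were at or below the upper of these values. For those members the astrocyte level was not told apart from background.

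Oligodendrocyte precursors, dividing progenitors that receive synapses from neurons, exceeded oligodendrocytes in 22 members (all genes 19.1%) and fell below them in 2 (all genes 11.2%), of 37 tested. Of all 10335 genes, 30.3% were called. Cacng4 was higher by 8.69 ± 0.15 log2 units, at 692 ± 34.1 CPM against 1.56 ± 0.383 CPM (adjusted p = 4.7e-45 by edgeR). Grin3a (5.98 ± 0.12), Grid1 (5.53 ± 0.11), Shisa6 (4.95 ± 0.22) and Shisa9 (4.53 ± 0.13) followed. Of the AMPA pore subunits Gria2 (3.23 ± 0.09), Gria3 (2.89 ± 0.09) and Gria4 (3.48 ± 0.10) were called and Gria1 (0.97 ± 0.13) was not. Grm3 (-5.13 ± 0.13) and Dlg1 (-1.07 ± 0.09) were higher in oligodendrocytes. In the precursors 26 of 38 members exceeded the highest share of the glutamatergic markers, 23.4%, among them Gria2 at 102% of the glutamatergic level. Grin2a, at 5.29%, did not.

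A list of 54 other genes of glutamatergic synapses was read from the same fits. It includes Slc17a7, a glutamatergic marker here. Its lower calls in GABAergic neurons (-3.68 ± 0.07) and astrocytes (-2.14 ± 0.08) are therefore no separate result. Between GABAergic and glutamatergic neurons 51 were tested, of which 4 were called higher and 16 lower (all genes 9.31% higher and 10.9% lower). Higher were the glutamate receptor interacting proteins Grip1 (4.00 ± 0.04) and Grip2 (2.08 ± 0.05), together with Shisa8 (4.83 ± 0.22) and Syndig1l (3.16 ± 0.24). Homer1, a scaffold that links group I metabotropic receptors (-3.02 ± 0.05), and Nptx1, a pentraxin that clusters AMPA receptors (-2.91 ± 0.07), were among the lower ones. Between Sst and Pvalb interneurons 5 of 43 were called higher and 3 lower (all genes 6.49% higher and 4.66% lower), with Cbln4, a secreted synapse organiser, at 4.68 ± 0.28. Between L6 CT and L2/3 IT 6 of 46 were called higher and 9 lower (all genes 5.9% higher and 8.31% lower). In astrocytes 5 of 49 were called higher than in glutamatergic neurons and 36 lower (all genes 19.8% higher and 23.6% lower), and the glutamate transporters Slc1a3 (9.94 ± 0.14) and Slc1a2 (4.11 ± 0.10) were among the higher ones. Oligodendrocyte precursors exceeded oligodendrocytes in 24 of 43 and fell below them in 2 (all genes 19.1% higher and 11.2% lower).

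Training was tested in 19 classes and in the summed glutamatergic neurons, GABAergic neurons and all nuclei. No member was called by edgeR in any of them. Of all genes, 0.17% were called in astrocytes, 21 genes with no member among them, and 0% in the other fits. Over the 19 classes 44 of 653 member tests had an unadjusted p under 0.05, or 6.74%, against 4.01% of all gene tests. Of the 44, 14 came from the vascular and leptomeningeal class. DESeq2 called 1 member, Grm7 in that class. In simulated L2/3 IT sums edgeR called 30% of 1.5-fold and 83% of 2-fold changes, so training changes of these sizes or smaller can be missed. The changed genes were not drawn from those of lowest count. L2/3 IT sums held 5950555 to 15006616 UMIs per mouse. Endothelial sums held 66348 to 192106, and classes of such depth were not simulated, so larger changes may be missed there.

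In summed glutamatergic neurons none of the 42 members tested had an unadjusted p under 0.05 (all genes 3.34%), and none had groups free of overlap (all genes 8.89%). Gria1 was 666, 579 and 434 CPM in control mice 1, 3 and 5 and 698, 576 and 739.7 CPM in trained mice 2, 4 and 6 (log2 difference 0.29 ± 0.17, SE). The groups overlapped. Gria2 was 2004, 1883 and 1934 CPM in control and 1883, 1675 and 1776 CPM in trained mice (-0.10 ± 0.08), with trained mouse 2 and control mouse 3 at the same level. Gria3 differed by 0.01 ± 0.12 and Gria4 by -0.14 ± 0.10. Grin1 was 431, 466 and 437 CPM in control and 483, 461 and 473 CPM in trained mice (0.12 ± 0.07), again with overlap. Grin2a differed by 0.18 ± 0.13 and Grin2b by 0.08 ± 0.10. The higher members of smallest p were Cacng5 (0.46 ± 0.23), Cacng2 (0.21 ± 0.10) and Grin1, and the lower ones Grm3 (-0.32 ± 0.15), Neto2 (-0.28 ± 0.15) and Gria4. Grm3 was 389.9, 310.1 and 493 CPM in control and 296, 321 and 319 CPM in trained mice, so the control mice were the more spread.

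In summed GABAergic neurons 2 of 40 members had an unadjusted p under 0.05 (all genes 2.43%) and 6 had groups free of overlap, 3 in each direction (all genes 8.18%). Grm8 was 168, 157 and 146 CPM in control and 119, 134 and 129.5 CPM in trained mice (-0.28 ± 0.09, unadjusted p = 0.00928, adjusted p = 0.9997 by edgeR). Every trained mouse was below every control mouse. Cacng3 was 88.4, 84.3 and 88.5 CPM in control and 96.2, 97.4 and 104 CPM in trained mice (0.21 ± 0.08, adjusted p = 0.9997 by edgeR), also without overlap. Among the AMPA and NMDA subunits, Gria1 differed by 0.09 ± 0.13, Gria2 by -0.01 ± 0.10, Gria3 by 0.06 ± 0.11, Gria4 by -0.01 ± 0.12, Grin1 by 0.14 ± 0.08, Grin2a by 0.18 ± 0.10 and Grin2b by 0.04 ± 0.10. The other lower members of smallest p were Grin2c (-0.58 ± 0.31) and Shisa6 (-0.12 ± 0.10).

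In the sum of all nuclei 1 of 43 members had an unadjusted p under 0.05 (all genes 3.27%) and 4 had groups free of overlap (all genes 8.57%). The lower members of smallest p were Grm3 (-0.32 ± 0.12), Cacng4 (-0.24 ± 0.12) and Cnih3 (-0.15 ± 0.11), and the higher ones Cacng2 (0.21 ± 0.10), Grin1 (0.13 ± 0.07) and Grin2d (0.15 ± 0.09). A sum over all nuclei moves with the number of nuclei of each class as well as with RNA per nucleus, and these cannot be told apart. Without the unnamed cluster, 1 member had an unadjusted p under 0.05 (all genes 3.13%) and 4 had groups free of overlap (all genes 8.54%).

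**Figure D4:**
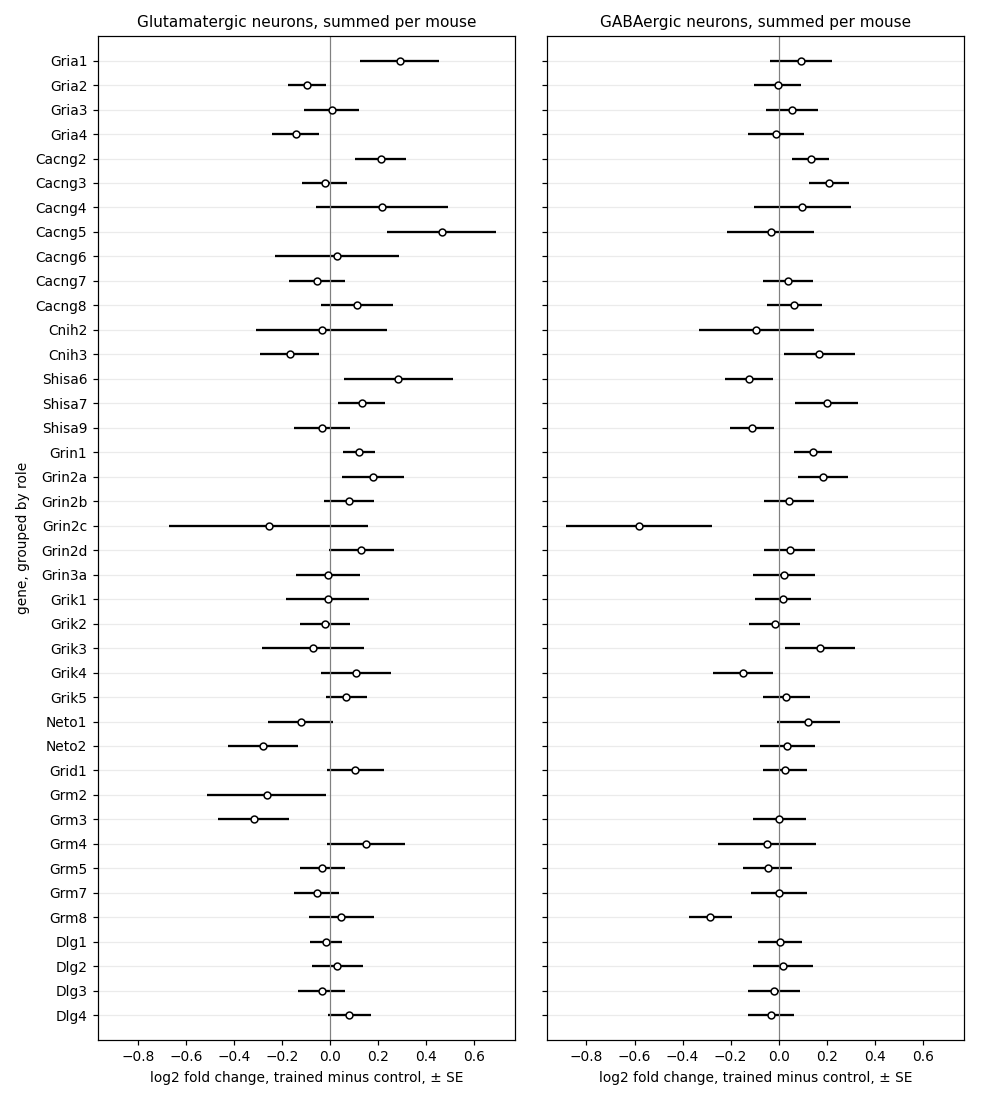
Log2 fold change, trained minus control, ± SE for tested genes in the summed glutamatergic and GABAergic neurons of 3 control and 3 trained mice; open points mark genes that were not called. The points run from -0.32 to 0.46 in glutamatergic and from -0.58 to 0.21 in GABAergic neurons.

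By class, the counts of members with an unadjusted p under 0.05 and of members whose control and trained mice did not overlap stood as follows among glutamatergic neurons. L2/3 IT had 4 of 39 members at that level (all genes 4.06%) and 3 without overlap (all genes 9.56%), namely Grin1, Neto2 and Shisa7. L4/5 IT had 4 of 38 members at that level (all genes 3.5%) and 6 without overlap (all genes 8.78%), namely Cnih3, Gria2, Grik4, Grm3, Neto1 and Neto2. Layer 5 intratelencephalic neurons (L5 IT) had 5 of 39 members at that level (all genes 5.27%) and 5 without overlap (all genes 11%), namely Cnih3, Gria2, Grik3, Grm3 and Neto2. Neto2 was the member shared by these 3 classes, with every trained mouse below every control mouse in each. In L2/3 IT Neto2 was 85.3, 54.3 and 72.2 CPM in control and 48.9, 50.6 and 47.7 CPM in trained mice (-0.50 ± 0.15, unadjusted p = 0.00728, adjusted p = 0.9995 by edgeR). It differed by -0.61 ± 0.21 in L4/5 IT, by -0.42 ± 0.14 in L5 IT and by -0.07 ± 0.13 in L5/6 NP, its highest class. The classes come from the same 6 mice, so they are not independent of each other.

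L5 ET had 1 of 37 members at that level (all genes 3.8%) and 3 without overlap (all genes 8.66%), namely Gria2, Gria4 and Grin2d. L6 IT had 1 of 38 members at that level (all genes 3.03%) and 2 without overlap (all genes 8.57%), namely Dlg3 and Grm4. L6 CT had 0 of 39 members at that level (all genes 2.18%) and 1 without overlap (all genes 7.44%), namely Gria2. L5/6 NP had 1 of 38 members at that level (all genes 2.24%) and 3 without overlap (all genes 7.73%), namely Dlg3, Grm2 and Shisa7. Gria2 was lower in every trained mouse than in every control mouse in L4/5 IT, L5 IT, L5 ET and L6 CT. In L6 CT it was 2402, 2398 and 2482 CPM in control and 2319, 2161 and 2161 CPM in trained mice (-0.11 ± 0.13, unadjusted p = 0.424 by edgeR). The difference was -0.13 ± 0.10 in L4/5 IT, -0.08 ± 0.09 in L5 IT, -0.12 ± 0.10 in L5 ET and -0.07 ± 0.10 in L2/3 IT.

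Among the interneurons the Pvalb class had 2 of 37 members at that level (all genes 2.35%) and 2 without overlap (all genes 7.82%), Cacng2 and Grin2c. Vip had 2 of 39 members at that level (all genes 3.38%) and 4 without overlap (all genes 9.27%), namely Cacng4, Grm5, Grm8 and Shisa6. Lamp5 had 0 of 39 members at that level (all genes 3.25%) and 1 without overlap (all genes 8.68%), namely Grik4. Sst had 1 of 39 members at that level (all genes 3.17%) and 0 without overlap (all genes 8.71%). No member recurred among these lists except Grin2c and Cacng2 in the GABAergic sum, which contains the Pvalb nuclei, and Grm8, which was free of overlap in Vip and in that sum.

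Among the non-neuronal classes, astrocytes had 2 of 38 members at that level (all genes 7.78%) and 5 without overlap (all genes 14.3%), namely Cacng7, Grik1, Grik3, Grik5 and Shisa9. All 5 were lower in trained mice, Grik1 by -0.68 ± 0.23. Oligodendrocytes had 0 of 33 members at that level (all genes 4.41%) and 2 without overlap (all genes 9.65%), namely Dlg3 and Grik5. Differentiating oligodendrocytes had 1 of 19 members at that level (all genes 3.53%) and 1 without overlap (all genes 9.69%), namely Grik4. Microglia and macrophages had 0 of 35 members at that level (all genes 4.12%) and 0 without overlap (all genes 9.62%). Endothelial nuclei had 2 of 17 members at that level (all genes 4.16%) and 4 without overlap (all genes 9.24%), namely Gria2, Grin1, Grin2a and Grin2b. Pericytes and smooth muscle had 2 of 22 members at that level (all genes 3.65%) and 1 without overlap (all genes 9.13%), namely Grin1. The 4 endothelial genes stood at 19.2% to 32.0% of their glutamatergic level, below the highest glutamatergic marker there (52.8%). Grin1 in pericytes and smooth muscle stood at 28.8%, also below the highest marker (55.1%). The part of neuronal transcripts in these values was not tested. Without trained mouse 6, 9 members were called over the classes, 8 of them lower in pericytes and smooth muscle (all genes 1.94%), and Grik1 higher in endothelial nuclei (all genes 0.059%).

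Oligodendrocyte precursors had 2 of 35 members at that level (all genes 3.65%) and 4 without overlap (all genes 9.23%), namely Grin2a, Grm7, Neto1 and Shisa9. They gave the smallest p of all 653 tests, for Grin2a, which was 29.6, 46.8 and 33.6 CPM in control and 68.0, 75.5 and 248 CPM in trained mice (1.62 ± 0.33, unadjusted p = 2.5e-05, adjusted p = 0.155 by edgeR). It passed the threshold without trained mouse 2 (1.93, all genes 0.0676%), without trained mouse 4 (1.94, all genes 0.0113%) and with no filter on low counts (1.57, all genes 0.0313%). In mouse 6, 64 of the 70 Grin2a UMIs came from a single nucleus of 15937 UMIs, and in mouse 4, 25 of 48 from another of 19705 UMIs. Leaving out the nucleus with the most Grin2a UMIs in each mouse gave 27.5, 43.3 and 30.9 CPM in control and 62.5, 37.3 and 22.6 CPM in trained mice, and the groups overlapped. Grin2a in this class was also within the range of the glutamatergic markers counted there. Shisa9 in the same class was 226, 232 and 262 CPM in control and 189, 175 and 128 CPM in trained mice (-0.52 ± 0.17, adjusted p = 0.9999 by edgeR), with every trained mouse below every control mouse.

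The vascular and leptomeningeal class, fibroblast-like cells of vessels and meninges, had 14 of 32 members at an unadjusted p under 0.05 (all genes 9.91%). Of the 32, 28 were lower in trained mice, and 11 had groups free of overlap (all genes 14.8%). Grm7 was 395, 348 and 306 CPM in control and 75.9, 134 and 183 CPM in trained mice (-1.35 ± 0.28, adjusted p = 0.172 by edgeR). Grin1 (-1.45 ± 0.37), Cnih3 (-1.90 ± 0.53), Grid1 (-1.43 ± 0.41), Grm5 (-1.10 ± 0.32) and Gria3 (-0.65 ± 0.19) were also lower, with adjusted p from 0.213 to 0.261 by edgeR. The summed level of the 5 glutamatergic markers in these nuclei was lower as well: control mice ranged from 204 to 249.5 CPM and trained mice from 97.0 to 156 CPM, and none of the 5 was at 0 in any mouse. Their part in the result was not tested. DESeq2 called Grm7 here (-1.37, all genes 0.25%), and with no filter on low counts edgeR called 12 members (all genes 1.76%). The 3 clusters of the class were unevenly drawn too: the largest held 71.6, 81.2 and 91.0% of its nuclei in control and 44.8, 76.6 and 59.3% in trained mice.

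**Figure D5:**
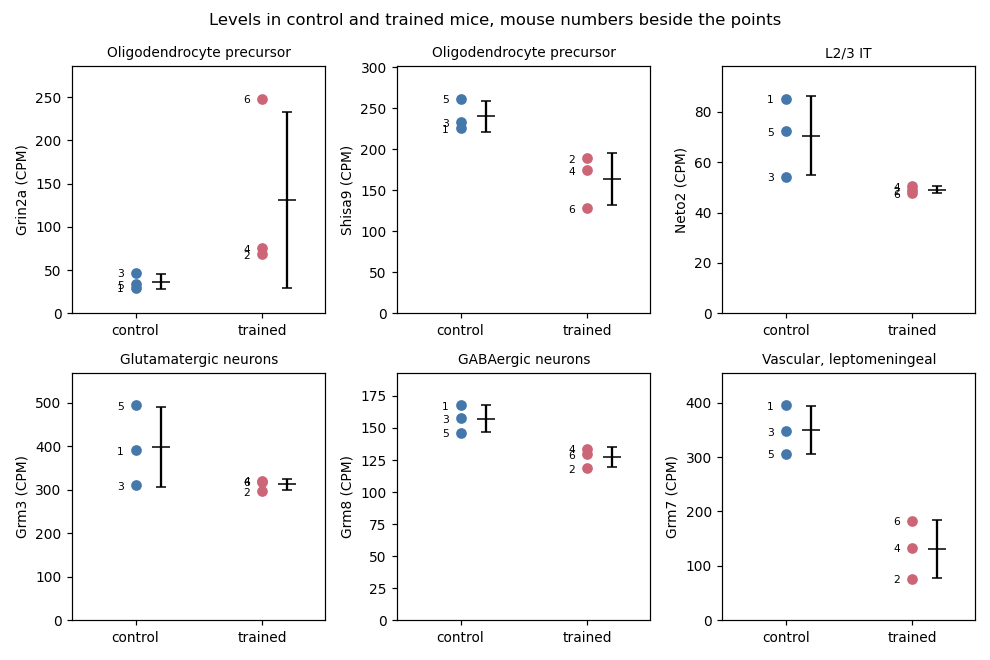
Level in CPM of 6 gene and class pairs (panels, axes from 0) in the 3 control and 3 trained mice, with the mean ± SD beside the points. Grin2a in oligodendrocyte precursors has mouse 6 far above the others at 248 CPM, and the groups overlap for Grm3 in glutamatergic neurons.

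Whether training differed between GABAergic and glutamatergic neurons was tested directly by the interaction. None of 43 members was called by edgeR, where 0% of all genes were, and 7 had an unadjusted p under 0.05 (all genes 5.34%). Grm8 had the smallest p, with a training effect of 0.05 in glutamatergic and -0.28 in GABAergic neurons (difference -0.34 ± 0.11, adjusted p = 0.810 by edgeR).

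Subunit shares were compared by an exact two-sided permutation test, for which the smallest possible p with 3 mice against 3 is 0.1. The Gria2 share of AMPA subunit UMIs in glutamatergic neurons was 41.4, 44 and 43.3% in control and 41.3, 41.3 and 40.2% in trained mice (means 42.9% and 40.9%, exact permutation p = 0.1, adjusted p = 0.36 over 6 comparisons). Every trained mouse was below every control mouse, though mouse 1 only just. In GABAergic neurons the means were 30.7% and 30.0% (exact p = 0.7). The Grin2a share of Grin2a plus Grin2b was 50.4% in control and 52.1% in trained glutamatergic neurons (exact p = 0.3). In GABAergic neurons it was 48.0% and 50.3% (exact p = 0.2).

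Of the 54 other synaptic genes, none was called for training by edgeR in 746 tests over the 19 classes (all genes 0.0109%). Of these tests, 43 had an unadjusted p under 0.05 (all genes 4.01%). In the glutamatergic sum none of 50 was at that level (all genes 3.34%). The genes of smallest p were Abhd6 (0.20 ± 0.09), Frrs1l (-0.13 ± 0.09) and Olfm3 (-0.13 ± 0.09) among the AMPA receptor partners, and Dlgap4 (0.19 ± 0.13), Nsf (0.09 ± 0.07) and Camk2b (0.10 ± 0.08) among the scaffolds and anchors. They were Nptx2 (0.52 ± 0.23), Lrrtm2 (0.16 ± 0.12) and Cbln2 (-0.12 ± 0.14) among the organisers, and Slc17a6 (-0.31 ± 0.15), Slc1a2 (-0.09 ± 0.09) and Slc1a1 (0.07 ± 0.12) among the transporters.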

How the data were processed

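Single-nucleus libraries (10x Genomics 3' v3.1 chemistry) of 6 mice, each sequenced in 2 runs, were deposited as 1 matrix of raw UMI counts, per the file headers. The authors' counts were made with Cell Ranger 4.0.0 on mm10, per the submitters' processing notes. Intron counting and strand use were not given in the sources used. The deposited barcode and gene lists hold names, not measurements; the barcode suffix gives the mouse.

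Nuclei with at least 500 genes and at most 5% mitochondrial counts were kept, and Scrublet doublets (3.36% to 5.81% per mouse) were removed. Of 51926 barcodes, 49243 remained. Clustering (scanpy 1.11.5, Leiden, resolution 1.0, 2000 variable genes, 30 components) left out the 44 genes. Clusters were named by the class with most listed markers among the 10 leading genes, with at least 3 markers detected; the main astrocyte cluster had none there and was named by its highest mean marker fold, a rule chosen after seeing the data. Ties for the L5 IT cluster (with L4/5 IT) and a smaller Sst cluster (with Lamp5) were settled by level. No Sncg class formed. Classes with under 20 nuclei in a mouse (L6b, Sst Chodl) had no fit of their own but stayed in the summed glutamatergic and GABAergic neurons.

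UMIs were summed per mouse and class. Levels are CPM of these sums; fold changes come from edgeR 4.0.16 (filterByExpr, TMM, quasi-likelihood, Benjamini-Hochberg over all genes), tested on simulated data. In simulated L2/3 IT training sums 30% of 1.5-fold and 83% of 2-fold changes were called. In simulated Sst and Pvalb sums 100% of 3-fold changes were called. DESeq2 1.42.0 was an alternative. Class contrasts had the mouse as a block because both classes came from the same animal.

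The members and the gene lists were chosen with earlier results of these data known. Named genes were, for class contrasts, up to 5 called higher and 5 lower by fold; for training, the 10 pairs of smallest p over classes, the 3 higher and 3 lower of smallest p in each sum, and Gria1 to Gria4, Grin1, Grin2a and Grin2b. For the other synaptic genes they were those called and the 3 of smallest p per group. Genes named beyond this were chosen after their values were seen. A few items among the genes and markers are not reported here.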

Additional observations from a re-analysis of the deposited data

Results flagged for a closer look

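Outside the named classes, an unnamed cluster held 393 nuclei of trained mouse 6 and 1, 2, 3, 2 and 3 nuclei of mice 1 to 5, which is above the number in any control mouse. Its 10 leading genes included Tmsb10, Timm8b, Ndufa4 and Fth1, and its nuclei had a median of 1381 UMIs. These nuclei entered only the sum of all nuclei. Groups of 3 mice are too small for a check of single outlying samples, and no member's training effect passed the test of a difference between GABAergic and glutamatergic neurons.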

How the results depend on the processing

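No paired analysis was possible because control and trained mice share no numbers. Without the replicate block, the contrast of GABAergic minus glutamatergic neurons called 17 members (all genes 20.3%) and Sst minus Pvalb 15 (all genes 11.1%). L6 CT minus L2/3 IT called 11 (all genes 14.2%), the astrocyte contrast 31 (all genes 43.3%) and the oligodendrocyte precursor contrast 25 (all genes 30.3%). No alternative run moved the counts of the class contrasts by over 1.5 times. Of 462 alternative values of 42 named class differences, 460 kept direction and call; the others were those of Neto1 given with that contrast.

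For training by class the count of 0 became 1 with DESeq2 (Grm7, vascular and leptomeningeal, where 47 of all 18769 genes were called), 15 with no filter on low counts (12 in that class, where 330 of all 18770 genes were called, and 1 each in endothelial nuclei, oligodendrocyte precursors and L4/5 IT, where 0.109%, 0.0313% and 0.124% of all genes were), 1 with depth per nucleus as a covariate (Neto1, vascular and leptomeningeal, all genes 0.0681%) and 0 to 9 when a mouse was left out. The 9 came without trained mouse 6 and were 8 members lower in pericytes, where 104 of all 5201 genes were called, and Grik1 higher in endothelial nuclei, where 2 of 3388 were. The cause was not tested. In the 2 neuron sums, all nuclei and the interaction, every alternative run gave 0 (DESeq2 and the covariate were not run for the interaction), including all nuclei without the unnamed cluster, an alternative chosen after seeing the data.

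Some small training differences, none called, changed direction. With the covariate, Gria3 was -0.13 and Grin2b -0.018 in glutamatergic neurons, and Grin2b was -0.071 and Gria1 -0.057 in GABAergic neurons. Leaving out a mouse gave -0.056 to 0.12 for Gria3 in glutamatergic neurons and, in GABAergic neurons, -0.033 to 0.22 for Gria1, -0.038 to 0.064 for Gria2, -0.036 to 0.14 for Gria3 and -0.082 to 0.094 for Gria4. The difference in the Gria2 share in GABAergic neurons went from -1.27 to 0.38 points.

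Depth was least in endothelial nuclei (25 to 85 per mouse) and differentiating oligodendrocytes (22 to 57), where 17 and 19 members passed the filter.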

Other observations

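Both small classes without a fit of their own had few nuclei per mouse, and their values are given without a test. Their nuclei did enter the summed glutamatergic (layer 6b) and GABAergic (Sst Chodl) neurons. Layer 6b gave 5 nuclei in trained mouse 4 and 51 in trained mouse 6, and Sst Chodl 6 to 17 per mouse. In the 149 layer 6b nuclei, the deepest cortical neurons, Grik3 was 437 ± 137 CPM (SD, n = 6 mice) and Neto1 604 ± 81.0 CPM, and Dlg2 was 7798 ± 605 CPM. Grik3 in layer 6b was 656, 326 and 373 CPM in control and 539, 299 and 431 CPM in trained mice, so mice differed widely within each group. In the 63 Sst Chodl nuclei, the long-range projecting GABAergic neurons, Grik1 was 1929 ± 293 CPM, with Grm5 at 211 ± 159.6 CPM. Grin3a, which had its highest mean of the fitted classes in the other Sst neurons, was 827 ± 161 CPM in the Sst Chodl nuclei.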
